A study of Mus musculus with 24 samples.

Results

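The early response of mouse limb buds to a high concentration of tert-butylphenyl diphenyl phosphate (BPDP) was examined at 3 h of culture. The compound, an organophosphate ester, serves as a plasticizer and flame retardant. The comparison takes 8 of the 24 libraries of the series, chosen by their labels and not by any measured value. They are 4 libraries of forelimb buds cultured with 10 µM BPDP and 4 libraries of forelimb buds cultured with the solvent DMSO, called control here. All limb buds came from CD1 mouse embryos at gestation day 13, and poly-A RNA was sequenced. By its title, the study asks about hedgehog signalling. Groups given 1 µM BPDP for 3 h, and 10 µM, 1 µM or solvent for 24 h, are used only to set the 3 h values beside a lower dose and a later time. The labels do not say how many limb buds were pooled, or whether the replicates are separate litters or cultures. The p-values therefore measure only how these samples vary, which may be technical.

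Hedgehog proteins bind the receptor Patched, which releases Smoothened and lets GLI transcription factors switch on targets such as Gli1, Ptch1 and Hhip. In the limb, Sonic hedgehog patterns the early bud and Indian hedgehog later controls cartilage growth. Retinoic acid is made from vitamin A by retinol and retinal dehydrogenases and acts through nuclear receptors on genes that include the receptor Rarb and the retinoid-handling enzymes Cyp26a1, Cyp26b1 and Dhrs3. These targets are widely read as a record of retinoic acid signalling, and in the limb the hormone takes part in patterning and cartilage formation. The aryl hydrocarbon receptor is a ligand-activated factor that drives cytochrome P450 genes such as Cyp1a1 and Cyp1b1.

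Total counts were between 14165947 and 19800595 per library with 10 µM BPDP and between 17308913 and 19369801 in controls. The limb identity of the samples was visible in both groups. Tbx5, the T-box factor of the forelimb, lay between 239 and 278 CPM with 10 µM and between 267 and 304 CPM in controls. CPM is the read count scaled to 1e+06 reads of the library after TMM scaling. Tbx4, its hindlimb relative, lay between 14.9 and 19.3 CPM with 10 µM and between 17.8 and 21.9 CPM in controls. Sox9, the regulator of early cartilage, lay between 422 and 548 CPM with 10 µM and between 432 and 531 CPM in controls. Shh was listed at 0 to 0.0675 CPM with 10 µM and at 0 to 0.174 CPM in controls and was too low to be tested. Xist, the RNA of the inactive X chromosome, had 606, 320, 341 and 175 CPM with 10 µM and 0.406, 0.378, 325 and 250 CPM in controls (replicates 1 to 4), so control replicates 1 and 2 stand apart in it. The Y-linked gene Ddx3y had 50.9, 36.3, 38.1 and 50.7 CPM with 10 µM and 69.1, 66.9, 24.8 and 23.2 CPM in controls. Comparisons within replicates 1 and 2 thus set treated libraries with Xist against controls nearly without it. The part of sex in the results below was not tested.

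Of 15520 genes tested, edgeR's quasi-likelihood test with the replicate number as a block called 335 (2.16%) at an adjusted p under 0.05. Of these, 244 (1.57%) rose with 10 µM BPDP and 91 (0.586%) fell. Changes were mostly small: 9 of the genes that rose and 6 of those that fell changed by a factor of at least 2, and 47 and 23 by at least 1.5. The log2 fold change over all tested genes had a median of -0.00. In 1416 genes (9.12%) the groups did not overlap in CPM, and 243 of the 335 called genes were among them. Without the replicate number in the model, 1 gene (0.00644%) was called, the retinal reductase gene Dhrs3, while 2411 genes had an unadjusted p under 0.05, against 2937 with the block. All 335 genes kept their direction without the block. Each replicate number holds 1 library of each group, so dropping the block hardly moves a fold change, and the kept direction adds no support. Without the block the other 334 had edgeR adjusted p-values of 0.067 to 0.857 (median 0.108). The count also rested on single replicates. It was 483 without replicate 1, 1331 without replicate 2, 4 without replicate 3 and 1 without replicate 4. With a term that separates replicates 1 and 2 from 3 and 4 in place of the block, 446 genes were called, 291 of them among the 335. Of the 3 h calls below, only that of Dhrs3 was also made in the fit with neither term.

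**Figure D1:**
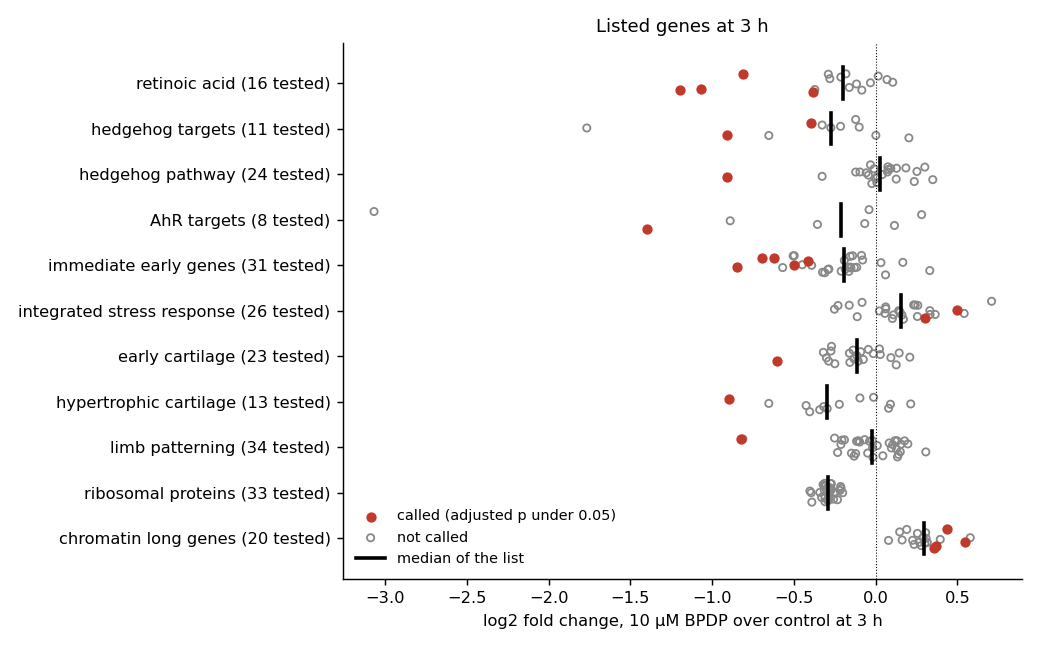
Log2 fold change of 10 µM BPDP over control at 3 h for the tested members of 11 gene lists (x axis). Each point is a gene, red where edgeR called it and open grey where it did not, and the black bar is the list's median. Retinoic acid genes and hedgehog targets have their called members left of 0, all 33 ribosomal protein genes lie left of 0 with none called, and the 20 long chromatin genes lie right of 0 with 4 called.

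Some genes of retinoic acid signalling fell with 10 µM BPDP. Of 16 tested members of the list, 4 fell, none rose and 12 did not pass the test, with a median log2 fold change of -0.20. Among all 15520 tested genes, 91 (0.586%) fell. With each library's trend with gene length removed, 3 of the 16 fell. The summed level of the list was 1135 to 1354 CPM with 10 µM and 1396 to 1571 CPM in controls. The 4 were Dhrs3, Rarb, Cyp26a1 and Cyp26b1, which code for a reductase that returns retinal to retinol, a retinoic acid receptor, and a pair of enzymes that break down retinoic acid. In bulk tissue, fewer cells of a type that express a gene and less RNA of that gene per cell cannot be told apart.

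Dhrs3 (chr4:144892827-144928209, mm10, plus strand) had the smallest adjusted p of all genes. It had 34.0, 37.5, 37.5 and 41.4 CPM with 10 µM BPDP and 80.7, 67.9, 83.7 and 85.1 CPM in controls (replicates 1 to 4). Every treated library lay far below every control. The mean was 37.6 ± 3.04 CPM with 10 µM and 79.4 ± 7.84 CPM in controls (SD, n = 4 each). The log2 fold change was -1.07 (SE 0.0813, edgeR adjusted p = 0.000178), and without the block the adjusted p was 0.000183. It was -1.05 within replicates 1 and 2 (edgeR adjusted p = 0.0142) and -1.08 within replicates 3 and 4 (adjusted p = 0.000571). Dhrs3 kept its call in all 26 alternatives, with log2 fold changes of -1.14 to -0.98 and adjusted p-values up to 0.0225.

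Rarb had 11.6, 12.1, 10.8 and 10.8 CPM with 10 µM BPDP and 17.5, 19.4, 18.5 and 25.4 CPM in controls. The treated libraries were close to each other and all lay under the controls, of which replicate 4 was the highest. Its log2 fold change was -0.81 (SE 0.131, edgeR adjusted p = 0.014), and 15 of 26 alternatives called it. Cyp26a1 was expressed at a low level, with 1.66, 1.29, 2.16 and 1.603 CPM with 10 µM and 3.54, 4.76, 3.95 and 3.15 CPM in controls. The groups did not overlap. Its log2 fold change was -1.19 (SE 0.27, edgeR adjusted p = 0.0437), a call held in 4 of 24 alternatives.

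Cyp26b1, a retinoic acid hydroxylase gene known for its role in the limb, had 118, 125, 147 and 150 CPM with 10 µM BPDP and 179, 152, 184 and 195 CPM in controls. No treated library reached a control, though treated replicates 3 and 4 came close to control replicate 2. The log2 fold change was -0.39 (SE 0.0753, edgeR adjusted p = 0.0299). With the length trend removed, Cyp26b1 kept an edgeR adjusted p of 0.0286 while Cyp26a1 had 0.125. The adjusted p of Cyp26b1 was 0.0645 with length and GC trends removed, and 10 of 26 alternatives called it.

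Genes for retinoid uptake and synthesis did not pass the test. Stra6, a membrane receptor for retinol uptake, had 31.1 to 37.7 CPM with 10 µM and 36.8 to 51.5 CPM in controls, which overlap. Its log2 fold change was -0.29 (edgeR adjusted p = 0.0821). Aldh1a2, the main retinoic acid synthesizing enzyme of the embryo, had 22.1 to 60.6 CPM with 10 µM and 27.8 to 50.7 CPM in controls (log2 fold change -0.03, edgeR adjusted p = 0.902). The receptor gene Rara had 79.0 to 86.6 CPM with 10 µM and 89.5 to 101.2 CPM in controls, without overlap (log2 fold change -0.18, edgeR adjusted p = 0.18). Rarg had 260.0 to 303 CPM with 10 µM and 316 to 342 CPM in controls, also without overlap (-0.21, edgeR adjusted p = 0.175).

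**Figure D2:**
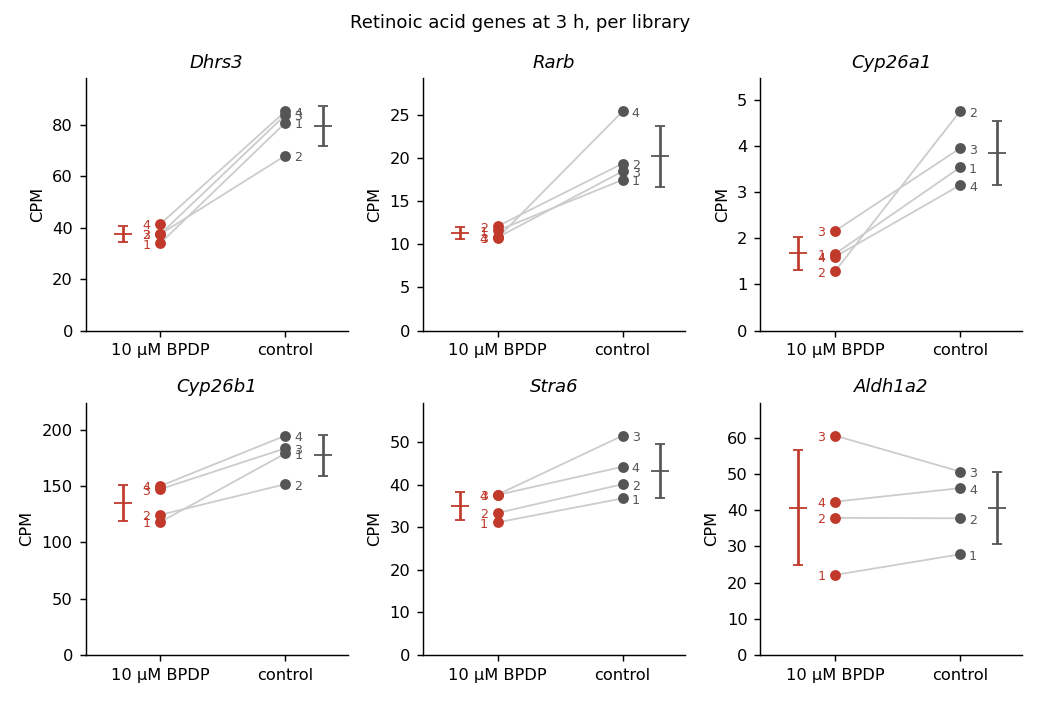
CPM (y axis, from 0) of 6 retinoic acid genes in each library at 3 h, with 10 µM BPDP at left and control at right. Numbers are replicates, grey lines join libraries of the same number, and bars give mean and SD (n = 4). Dhrs3 separates widely (34.0 to 41.4 against 67.9 to 85.1 CPM), and Stra6 and Aldh1a2 overlap between groups.

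The proximal promoters of the fallen retinoic acid genes were searched for a direct repeat of the retinoic acid receptor half-site with a spacer of 5 bases, that is GTTCA and AGTTCA with any 5 bases between them, on both strands. Windows ran from 250 bases before to 50 bases after each annotated start, with sequences from RefSeq on build GRCm38.p6. The motif was present in 11 of 32817 such windows (0.0335%), which belong to 11 of 26994 genes (0.0408%). Of the 91 genes that fell, 52 had a window, and 2 of them held the motif, Rarb and Cyp26a1. The letters searched are a single fixed form of a known element. Whether fallen genes hold it more often than other genes was not tested. The site in Rarb lies at -52 to -37 from the start and reads on the gene's own strand, and the site in Cyp26a1 lies at -32 to -17 and reads on the opposite strand. The windows of Dhrs3 and Cyp26b1 hold no such letters. Both windows with the motif are shown 5′ to 3′ on the gene's strand, with the match in capitals, since these are the 2 fallen genes with this known element of the receptor near the start.
Rarb, chr14:16575427-16575726, minus strand: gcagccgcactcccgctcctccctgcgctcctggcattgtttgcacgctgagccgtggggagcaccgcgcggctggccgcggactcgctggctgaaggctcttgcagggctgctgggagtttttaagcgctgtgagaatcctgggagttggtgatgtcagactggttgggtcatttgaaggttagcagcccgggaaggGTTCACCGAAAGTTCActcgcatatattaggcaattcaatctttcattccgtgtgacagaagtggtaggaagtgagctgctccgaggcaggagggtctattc
Cyp26a1, chr19:37697558-37697857, plus strand: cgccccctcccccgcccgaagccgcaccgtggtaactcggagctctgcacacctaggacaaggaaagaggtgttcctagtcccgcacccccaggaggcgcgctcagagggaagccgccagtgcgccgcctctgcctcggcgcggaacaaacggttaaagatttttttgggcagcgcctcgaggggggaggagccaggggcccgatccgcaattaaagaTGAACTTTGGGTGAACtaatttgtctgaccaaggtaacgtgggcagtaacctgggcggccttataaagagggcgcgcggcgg
A match of letters is a description of the window and does not show binding.

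Hedgehog target genes moved at 3 h in part. Of 11 tested targets, 2 fell, none rose and 9 did not pass. Their median log2 fold change was -0.27, and 9 of the 11 lay below 0. Among all 15520 tested genes, 91 (0.586%) fell and 7854 lay below 0. The summed level of the targets was 318 to 372 CPM with 10 µM BPDP and 411 to 479 CPM in controls. With the length trend removed, 2 fell as well, Gli1 and Bcl2, and the median was -0.39. The 2 called targets were Gli1 and Ccnd1. Of the 24 tested genes of the pathway as a whole, Gli1 fell and none rose, and the median was 0.03.

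Gli1 (chr10:127329889-127341589, mm10, minus strand), the transcription factor that serves as the standard readout of the pathway, had 44.2, 40.0, 22.3 and 24.7 CPM with 10 µM BPDP. Controls had 65.0, 73.4, 54.4 and 49.0 CPM. Replicates 1 and 2 were higher than replicates 3 and 4 in both groups, and the groups did not overlap. This gave a log2 fold change of -0.91 (SE 0.105, edgeR adjusted p = 0.0072), and without the block the adjusted p was 0.143. It was -0.71 within replicates 1 and 2 (edgeR adjusted p = 0.305) and -1.12 within replicates 3 and 4 (adjusted p = 0.0019). Of 26 alternatives, 12 called Gli1.

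Ccnd1, which codes for cyclin D1 and answers to many growth signals besides hedgehog, had 117, 151, 132 and 137 CPM with 10 µM BPDP and 189, 166, 168 and 185 CPM in controls. There was no overlap between the groups, with a log2 fold change of -0.39 (SE 0.0873, edgeR adjusted p = 0.0424). Ccnd1 was called in 9 of 26 alternatives.

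Other targets did not pass the test. Ptch1, the main Patched receptor, had 50.4, 41.3, 32.2 and 38.1 CPM with 10 µM BPDP and 65.8, 38.4, 41.8 and 34.5 CPM in controls. The groups overlapped (log2 fold change -0.12, SE 0.104, edgeR adjusted p = 0.574). Hhip, a decoy receptor, had a log2 fold change of -0.33 (edgeR adjusted p = 0.247). Bcl2, a survival gene, had 47.3 to 53.5 CPM with 10 µM and 58.2 to 66.0 CPM in controls, without overlap (log2 fold change -0.27, edgeR adjusted p = 0.0698). Pthlh, which codes for parathyroid hormone-related protein, also did not overlap, at 4.74 to 6.55 CPM with 10 µM and 7.60 to 9.78 CPM in controls (log2 fold change -0.65, edgeR adjusted p = 0.0704). Foxf1, a forkhead factor, was near the detection limit at 0.134 to 0.416 CPM with 10 µM and 0.791 to 1.08 CPM in controls (log2 fold change -1.77, edgeR adjusted p = 0.0896).

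The ligand and the signal transducers did not pass the test. Ihh, the ligand of cartilage, overlapped between the groups, with 22.3 to 28.6 CPM at 10 µM BPDP and 24.6 to 30.8 CPM in controls (log2 fold change -0.10, edgeR adjusted p = 0.665). The transducer Smo lay at 241 to 275 CPM with 10 µM and 251 to 280 CPM in controls, and Gli2 at 116 to 127 CPM with 10 µM and 105 to 122 CPM in controls. Gli3, which codes for the main GLI repressor, had 229 to 257 CPM with 10 µM and 197 to 217 CPM in controls, without overlap (log2 fold change 0.24, edgeR adjusted p = 0.118). Gpr161, a ciliary receptor that restrains hedgehog signalling, stood at 0.35 on the log2 scale (edgeR adjusted p = 0.0857). The value of Gli3 was 0.03 once the length trend was removed.

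**Figure D3:**
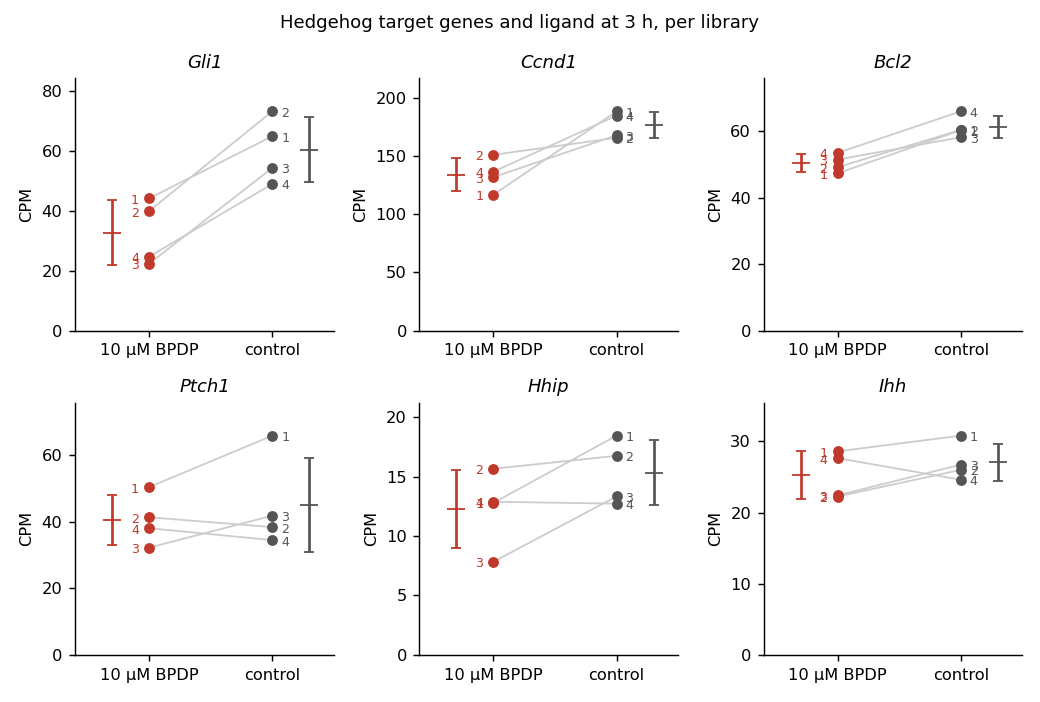
CPM (y axis, from 0) of 5 hedgehog targets and the ligand gene Ihh in each library at 3 h, with 10 µM BPDP at left and control at right. Numbers are replicates, grey lines join libraries of the same number, and bars give mean and SD (n = 4). Gli1, Ccnd1 and Bcl2 do not overlap between the groups, and Ptch1, Hhip and Ihh do.

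Cyp1b1, a cytochrome P450 gene driven by the aryl hydrocarbon receptor, fell. It had 9.83, 8.87, 16.2 and 13.6 CPM with 10 µM BPDP and 41.1, 27.3, 29.9 and 28.5 CPM in controls. Every treated library lay under every control, and control replicate 1 was the highest. Its log2 fold change was -1.40 (SE 0.179, edgeR adjusted p = 0.0098), and the adjusted p was 0.067 without the block and 0.0136 with the length trend removed. It was -1.86 within replicates 1 and 2 (edgeR adjusted p = 0.0039) and -0.95 within replicates 3 and 4 (adjusted p = 0.0299). Of 26 alternatives, 18 called it.

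Cyp1a1, the classic target of the same receptor, had 0.364, 0.496, 4.32 and 2.07 CPM with 10 µM BPDP and 14.3, 14.1, 18.3 and 5.91 CPM in controls. The groups did not overlap but varied widely within themselves. The log2 fold change was -3.07 (SE 0.742), and it did not pass (edgeR adjusted p = 0.143). Within replicates 1 and 2 the log2 fold change was -5.01 (edgeR adjusted p = 7.14e-06), and within replicates 3 and 4 it was -1.91 (adjusted p = 0.318). Ahrr, the receptor's repressor, overlapped between groups (log2 fold change -0.89, edgeR adjusted p = 0.09). Tiparp, a target that codes for an ADP-ribosyltransferase, had 21.1 to 23.0 CPM with 10 µM and 23.9 to 31.2 CPM in controls (log2 fold change -0.36, edgeR adjusted p = 0.08). The receptor gene Ahr had a log2 fold change of 0.28 (edgeR adjusted p = 0.213). Of the 8 tested members of the list, 1 fell, none rose and 6 lay below 0, with a median of -0.21. Among all 15520 tested genes, 91 (0.586%) fell and 7854 lay below 0.

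The core of the aryl hydrocarbon receptor element, GCGTG, was searched on both strands of the same promoter windows. It was present in 32.4% of all windows, and once in the window of Cyp1b1 and once in that of Cyp1a1. These windows of the P450 genes are shown 5′ to 3′ on the gene's strand, with the match in capitals (CACGC where it reads on the opposite strand).
Cyp1b1, chr17:79715012-79715311, minus strand: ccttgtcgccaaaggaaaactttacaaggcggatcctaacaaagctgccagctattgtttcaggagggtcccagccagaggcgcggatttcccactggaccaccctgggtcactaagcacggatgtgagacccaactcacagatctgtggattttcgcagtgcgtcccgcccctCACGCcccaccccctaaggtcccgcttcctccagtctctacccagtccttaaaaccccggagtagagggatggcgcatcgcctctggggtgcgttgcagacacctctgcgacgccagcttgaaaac
Cyp1a1, chr9:57697363-57697662, plus strand: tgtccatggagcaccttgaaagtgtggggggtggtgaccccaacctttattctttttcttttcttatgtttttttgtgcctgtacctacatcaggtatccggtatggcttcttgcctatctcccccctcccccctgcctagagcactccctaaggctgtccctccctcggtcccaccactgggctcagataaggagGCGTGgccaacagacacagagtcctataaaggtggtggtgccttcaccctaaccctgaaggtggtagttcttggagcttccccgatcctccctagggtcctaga
A motif of this length occurs in about the share of windows given, so its presence marks neither gene out.

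Genes of the immediate early response, which answer within minutes to growth factors and stress, were on the low side. Of 31 tested members, 5 fell, none rose, 27 lay below 0 and the median was -0.19. Among all 15520 tested genes, 91 (0.586%) fell and 7854 lay below 0. With the length trend removed, 1 fell, Ctgf. The 5 were the transcription factor genes Fosb, Fos and Nr4a1, the regulator Ier2, and Ctgf, which codes for a matrix-associated growth factor and is also a YAP target. Fos had 7.59, 8.67, 7.70 and 5.54 CPM with 10 µM BPDP and 12.6, 12.2, 10.97 and 11.9 CPM in controls. The groups did not overlap, and the log2 fold change was -0.69 (SE 0.152, edgeR adjusted p = 0.0418). Fosb had 4.89, 9.07, 8.17 and 6.48 CPM with 10 µM and 13.3, 13.7, 13.8 and 10.4 CPM in controls, again without overlap. Its log2 fold change was -0.85 (SE 0.165, edgeR adjusted p = 0.0299). Ier2 and Nr4a1 had log2 fold changes of -0.42 and -0.50.

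Ctgf was called only with the replicate number or its split in the model. It had 29.6, 29.6, 13.2 and 14.8 CPM with 10 µM BPDP and 39.3, 50.3, 22.1 and 22.7 CPM in controls. Replicates 1 and 2 were higher than replicates 3 and 4 in each group, so the groups overlapped while every treated library lay under the control of its number. The log2 fold change was -0.62 (SE 0.0989), with an edgeR adjusted p of 0.0139 with the block and 0.504 without it.

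Regulators of cartilage and bone were mixed. Runx3, a transcription factor of chondrocyte maturation, had 15.6, 18.1, 12.4 and 14.8 CPM with 10 µM BPDP and 38.9, 25.5, 24.5 and 26.4 CPM in controls. Every treated library lay under every control, and control replicate 1 stood above the other controls. The log2 fold change was -0.90 (SE 0.129, edgeR adjusted p = 0.0098), and 14 of 26 alternatives called it. Runx2, the regulator of osteoblasts, had 34.6, 30.3, 20.1 and 22.2 CPM with 10 µM and 39.4, 38.4, 27.7 and 29.7 CPM in controls. Those groups overlapped and Runx2 did not pass (log2 fold change -0.34, edgeR adjusted p = 0.0689), although its adjusted p was 0.0402 with the length trend removed. Col2a1, the main cartilage collagen, had 3174, 2531, 1955 and 2326 CPM with 10 µM and 3268, 2912, 2391 and 2407 CPM in controls, which overlapped (log2 fold change -0.14, edgeR adjusted p = 0.588).

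Of 13 tested genes of hypertrophic cartilage 1 fell, and of 23 genes of early cartilage 1 fell, with medians of -0.30 and -0.12. Among all 15520 tested genes, 91 (0.586%) fell. The early cartilage gene was Cytl1, which codes for a small secreted protein of chondrocytes (log2 fold change -0.60, edgeR adjusted p = 0.0139). Its levels were 21.5 to 40.9 CPM with 10 µM BPDP and 33.7 to 59.8 CPM in controls, which overlap. The summed level of early cartilage genes was 5429 to 8204 CPM with 10 µM and 6225 to 8235 CPM in controls, and no early cartilage gene rose. Of 34 limb patterning genes 1 fell, Pitx1, a homeobox gene best known from the hindlimb. It had 3.44 to 6.15 CPM with 10 µM and 6.75 to 12.3 CPM in controls (log2 fold change -0.82, edgeR adjusted p = 0.0381).

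Secreted signals and their readouts also held fallen genes. Bmp7, a bone morphogenetic protein, had 61.5, 74.0, 75.4 and 69.2 CPM with 10 µM BPDP and 93.0, 94.1, 95.5 and 93.9 CPM in controls. The groups were well apart (log2 fold change -0.42, SE 0.0718, edgeR adjusted p = 0.018). Wnt4, a Wnt ligand of joints, had a log2 fold change of -0.60 (edgeR adjusted p = 0.0448). In the Notch pathway the receptor gene Notch1 rose (0.48, edgeR adjusted p = 0.0304) and the target gene Hes1 fell (-0.45, edgeR adjusted p = 0.0231). Hes1 had 49.2, 46.4, 53.5 and 55.3 CPM with 10 µM and 75.1, 68.2, 66.1 and 70.8 CPM in controls, without overlap. Notch1 is a long gene and Hes1 a short one. With the length trend removed the values were 0.24 for Notch1 (edgeR adjusted p = 0.282) and -0.34 for Hes1 (adjusted p = 0.107).

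Among the genes that fell most, Iigp1, an interferon-induced GTPase gene, was at 1.283 to 2.18 CPM with 10 µM BPDP and 3.00 to 4.84 CPM in controls (log2 fold change -1.23, edgeR adjusted p = 0.0385). Adra2a, an adrenergic receptor gene, was at 6.01 to 6.76 CPM with 10 µM and 9.57 to 13.8 CPM in controls (-0.85, edgeR adjusted p = 0.0231). Arsi, an arylsulfatase gene, was at 14.7 to 27.6 CPM with 10 µM and 28.7 to 41.4 CPM in controls (-0.77, edgeR adjusted p = 0.0093). None of these overlapped between the groups. Abcg1, a sterol transporter gene and liver X receptor target, had a log2 fold change of -0.70 (edgeR adjusted p = 0.0302), 1 of 10 tested genes of its list to fall. Krt14, a keratin of basal epidermis, had 191 to 258 CPM with 10 µM and 267 to 308 CPM in controls (-0.41, edgeR adjusted p = 0.047), 1 of 17 epidermal genes to fall. Of these 17, 13 lay below 0, with a median of -0.24. Of the 10 liver X receptor genes, 6 lay below 0, with a median of -0.02. Among all 15520 tested genes, 91 (0.586%) fell and 7854 lay below 0. Hic1, a transcriptional repressor gene chosen after its values were seen, had 122 to 150 CPM with 10 µM and 187 to 202 CPM in controls (-0.49, edgeR adjusted p = 0.0098).

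Genes that rose most were of mixed kinds. Ptar1, a prenyltransferase subunit gene, had 7.07, 4.86, 4.66 and 4.81 CPM with 10 µM BPDP and 3.77, 2.49, 1.58 and 2.14 CPM in controls. The groups did not overlap (log2 fold change 1.14, SE 0.217, edgeR adjusted p = 0.0299). Inhba, which codes for the activin A subunit, had 8.32, 5.80, 6.89 and 7.81 CPM with 10 µM and 4.64, 2.92, 4.59 and 1.86 CPM in controls (1.09, edgeR adjusted p = 0.0389). Lcor, a nuclear receptor corepressor gene, had a log2 fold change of 1.07 (edgeR adjusted p = 0.0437). Lnpep, a membrane aminopeptidase gene, had 38.2, 25.5, 15.5 and 18.5 CPM with 10 µM and 15.3, 13.1, 10.9 and 7.83 CPM in controls (1.02, edgeR adjusted p = 0.0093). In Lnpep treated replicate 1 was the highest and treated replicate 3 came within reach of control replicate 1.

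Other genes that rose were Cep85l, Atad2b, Zc3h12c, Fzd3 and Fam13b, with log2 fold changes of 0.84, 0.80, 0.76, 0.71 and 0.70. Fzd3, a Frizzled receptor of planar cell polarity, had 23.1, 21.6, 18.6 and 19.0 CPM with 10 µM BPDP and 13.1, 12.5, 13.8 and 11.04 CPM in controls, without overlap. A pair of genes chosen after their values were seen had low adjusted p-values. Alg10b, a glycosyltransferase gene of protein N-glycosylation, had 95.4, 79.3, 54.9 and 83.6 CPM with 10 µM and 61.4, 47.5, 31.1 and 42.1 CPM in controls. Its groups overlapped, while each treated library exceeded the control of its number (log2 fold change 0.80, SE 0.0791, edgeR adjusted p = 0.0017, and 0.162 without the block). Arid5b, a chromatin regulator gene, had 28.9 to 42.1 CPM with 10 µM and 18.8 to 27.0 CPM in controls (0.70, edgeR adjusted p = 0.0093).

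Few genes of the stress and growth lists were called. Of 26 genes of the integrated stress response, a programme of cells short of amino acids, 2 rose (7.69%, against 1.57% of all tested genes), none fell, 21 lay above 0 and the median was 0.16. An unadjusted p under 0.05 was found for 12 of the 26 (46.2%), against 18.9% of all tested genes. The 2 were Vldlr, a lipoprotein receptor (0.50, edgeR adjusted p = 0.0381), and Slc7a1, a cationic amino acid transporter (0.30, edgeR adjusted p = 0.049). Neither was called with the length trend removed. The list's median stayed at 0.16 in that fit. There 11 of the 26 had an unadjusted edgeR p under 0.05, against 1857 of all 15520 tested genes. Of 21 p53 targets 1 rose, Trp53inp1, and of 22 G2/M genes 1 rose, the kinesin gene Cenpe (0.34 and 0.37). With the length trend removed these were 0.23 and 0.17, and neither was called (edgeR adjusted p = 0.182 and 0.321). Of 132 tested genes of the heat shock, unfolded protein, oxidative stress, cholesterol synthesis, muscle, macrophage and endothelial lists, edgeR called 0, with 35 (26.5%) at an unadjusted p under 0.05. DESeq2 called 6 of these, against 499 of 10617 genes over all. The summed macrophage level was 117 to 152 CPM with 10 µM and 126 to 168 CPM in controls, that of endothelium was 484 to 598 CPM with 10 µM and 524 to 603 CPM in controls, and that of muscle was 2082 to 2475 CPM with 10 µM and 2390 to 2808 CPM in controls. All 3 ranges overlap, and their part in the results above was not tested.

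The direction of the called genes followed gene length. The 244 genes that rose had a median length of 6910 bases and the 91 that fell a median of 1873 bases, against 3058 bases for all tested genes. With tested genes split by length into 4 equal bins, in the shortest bin (69 to 1915 bases) 2 rose and 46 fell, with a median log2 fold change of -0.13. In the longest bin (4486 to 106824 bases) 208 rose and 4 fell, with a median of 0.14. Over 10 bins of equal size the median ran from -0.16 in the shortest to 0.21 in the longest, without a step back between.

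Within each library, the slope of the log2 level on log2 gene length, taken relative to the mean of the 8 libraries, was 0.107, 0.0335, 0.0029 and 0.0232 with 10 µM BPDP. In controls it was 0.0064, -0.0415, -0.0404 and -0.0914. The treated library was higher in each of the 4 numbered pairs, and the groups overlapped only through treated replicate 3 and control replicate 1. The difference was 0.0834 per doubling of length (exact permutation test, two-sided p = 0.0571, smallest possible 0.0286, adjusted p = 0.114 over 6 library measures). In genes with a mean of at least 50 counts it was 0.112 (exact permutation p = 0.0286, adjusted p = 0.0857). The slope on GC content was -0.68, -0.42, -0.47 and -0.21 with 10 µM and 0.15, 0.42, 0.66 and 0.55 in controls, without overlap (exact permutation p = 0.0286, adjusted p = 0.0857).

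The list of chromatin regulators and other very long genes lay high. Of 20 tested members of that list 4 rose, Kmt2c, Birc6, Nipbl and Herc1. All 20 lay above 0, with a median log2 fold change of 0.30. Among all 15520 tested genes, 244 (1.57%) rose and 7666 lay above 0. Kmt2c, a histone methyltransferase gene, had 113, 70.3, 70.2 and 72.2 CPM with 10 µM BPDP and 59.4, 57.4, 60.3 and 44.3 CPM in controls. The groups did not overlap, and treated replicate 1 stood far above the others (log2 fold change 0.55, edgeR adjusted p = 0.0373). With the length trend removed the list's median was 0.01 and edgeR called none of the 20, with 2 at an unadjusted p under 0.05. The short ribosomal protein genes were the counterpart. All 33 lay below 0, with a median of -0.29. EdgeR called none of them, 17 had an unadjusted p under 0.05, and DESeq2 called 7. Over all genes DESeq2 called 499 of 10617, 189 of them lower. Among all 15520 tested genes, 2937 (18.9%) had an unadjusted edgeR p under 0.05, and 7854 lay below 0. The median was -0.15 with the length trend removed. Their listed transcripts took 3.33%, 4.34%, 4.46% and 4.44% of counts with 10 µM and 4.801%, 4.33%, 4.76% and 5.31% in controls.

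With each library's length trend removed, 42 genes (0.271%) were called, 20 higher (0.129%) and 22 lower (0.142%), and 36 of the 42 were among the 335. In the longest of the 4 bins 8 genes were higher and 10 lower, in place of 208 and 4. With the trend in GC content removed as well, 26 (0.168%) were called, 15 higher and 11 lower, and 24 of them were among the 335. The calls of Dhrs3, Rarb, Cyp26b1, Gli1, Cyp1b1 and Runx3 held with the length trend removed, at edgeR adjusted p-values of 0.00029, 0.0286, 0.0286, 0.0053, 0.0136 and 0.0135. Those of Cyp26a1 (0.125), Ccnd1 (0.0903), Fos (0.119), Fosb (0.0551) and all 4 long genes did not. Also lost were the calls of Iigp1 (0.0942), Pitx1 (0.104), Wnt4 (0.11), Cytl1 (0.0956), Krt14 (0.216) and Abcg1 (0.065). So were those of Inhba (0.0815), Lcor (0.115), Cep85l (0.0545), Zc3h12c (0.123), Ier2 (0.144) and Nr4a1 (0.115). Calls that held too with the length trend removed were those of Ctgf, Adra2a, Arsi, Bmp7, Hic1, Ptar1, Lnpep, Atad2b, Fzd3, Fam13b, Alg10b and Arid5b. With the GC trend removed as well, the calls of Fzd3, Ptar1, Adra2a, Bmp7 and Cyp26b1 were lost. Their edgeR adjusted p-values were then 0.0806, 0.0729, 0.0526, 0.0501 and 0.0645. Bcl2, a long gene of 7191 bases that did not pass before, had an adjusted p of 0.0307 with only the length trend removed. Its log2 fold change was -0.45, against -0.27 with the length trend left in.

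**Figure D4:**
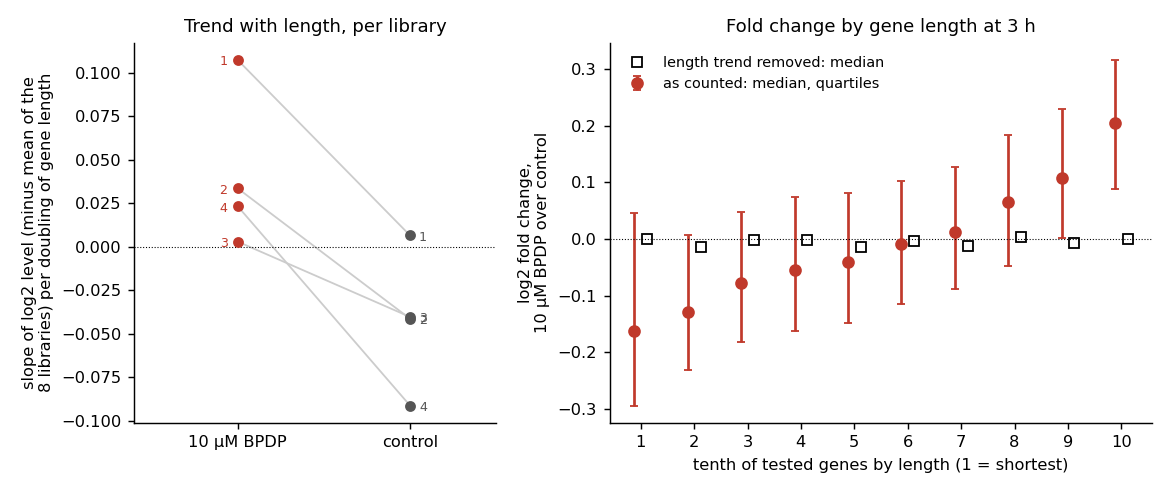
Left, slope of log2 level on log2 gene length in each library at 3 h, relative to the mean of the 8 libraries, with 10 µM BPDP at left and control at right and lines joining equal replicate numbers. Right, log2 fold change of 10 µM over control in 10 equal bins of tested genes from shortest to longest, as counted (red, median with quartiles) and with the length trend removed (open squares, median). The red medians run from -0.16 to 0.21 and the open squares stay near 0.

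The lower dose gives a comparison at the same time. Between 10 and 1 µM BPDP at 3 h, 3 of 16691 genes (0.018%) were called in edgeR's quasi-likelihood test with the block, and 1636 had an unadjusted p under 0.05. Without the block 0 were called, with 1385 at an unadjusted p under 0.05. The count was 2 without replicate 1 and 1 without replicate 2, 3 or 4. The 3 were Cyp1b1, Dhrs3 and, in the other direction, Angptl4, a lipoprotein lipase inhibitor gene named after its values were seen. Dhrs3 had 34.0 to 41.4 CPM with 10 µM and 57.3 to 69.0 CPM with 1 µM (log2 fold change -0.72, SE 0.109, edgeR adjusted p = 0.0099). Cyp1b1 had 8.87 to 16.2 CPM with 10 µM and 27.2 to 32.4 CPM with 1 µM (-1.31, SE 0.159, edgeR adjusted p = 0.0012). Angptl4 had 44.4 to 56.3 CPM with 10 µM and 27.9 to 36.2 CPM with 1 µM (0.59, SE 0.0992, edgeR adjusted p = 0.0273). The 3 h controls had 44.2, 34.1, 47.1 and 39.6 CPM of Angptl4, and 10 µM over control did not pass (0.27, edgeR adjusted p = 0.0821). None of the 3 overlapped between the doses.

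Gli1 was not called between the doses. It had 41.3, 51.5, 34.2 and 37.0 CPM with 1 µM BPDP at 3 h. The difference of 10 from 1 µM was -0.35 on the log2 scale (SE 0.282, edgeR adjusted p = 0.675). This SE, from the fit of all 24 libraries, is wide against the 0.105 of Gli1 in the 3 h fit. The test therefore does not show that Gli1 is the same at both doses. The doses share the control libraries, so each comparison with control is given side by side. Gli1 had -0.57 at 1 µM (edgeR adjusted p = 0.0065) and -0.91 at 10 µM. Dhrs3 had -0.36 at 1 µM (edgeR adjusted p = 0.0667) and -1.07 at 10 µM. Cyp1b1 had -0.09 at 1 µM (edgeR adjusted p = 0.868) and -1.40 at 10 µM. At 1 µM, 2 of 15446 genes (0.0129%) were called, Gli1 and Mbnl3, a splicing factor gene, and 1504 had an unadjusted p under 0.05. Without the block edgeR called 0 at 1 µM, with 801 at an unadjusted p under 0.05.

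By 24 h the response had widened, with 1645 of 15508 genes (10.6%) called between 10 µM BPDP and the 24 h controls in edgeR's test with the block, and 963 without it. Of the 91 genes that fell at 3 h, 45 (49.5%) fell at 24 h too, which is 5.15% of the 874 (5.64%) that fell at 24 h. Of the 244 that rose at 3 h, 42 (17.2%) rose at 24 h, 5.45% of the 771 (4.97%) that rose then. In a direct test of the 24 h against the 3 h effect in 1 fit of all 24 libraries, 739 of 16691 genes (4.43%) differed, and 432 without the block. That count was 302 without replicate 3 and 310 without replicate 4.

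Of the 11 hedgehog targets tested for this difference, the 24 h effect minus the 3 h effect was below 0 in 6 and above 0 in 1 that passed, and 4 did not pass. Over all genes, 739 of 16691 (4.43%) passed. The 6 were Gli1, Ptch1, Hhip, Ccnd1, Bcl2 and Pthlh. The 1 above 0 was Foxf2, a forkhead factor gene, with 0.67 on the log2 scale (edgeR adjusted p = 0.0418). Gli1 had 2.78, 2.47, 0.127 and 1.49 CPM with 10 µM BPDP and 102, 129, 99.8 and 93.5 CPM in controls at 24 h. The 24 h effect minus the 3 h effect was -5.14 on the log2 scale (edgeR adjusted p = 4.56e-05). Ptch1, which did not pass at 3 h, had a log2 fold change of -1.85 at 24 h. Its effect differed from that at 3 h by -1.72 (edgeR adjusted p = 2.92e-06). Ihh had 1.86 at 24 h and differed by 1.96 (adjusted p = 1.96e-07).

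Of 16 retinoic acid genes, this difference passed above 0 in 1 and below 0 in 1, and 14 did not pass, among them all 4 that fell at 3 h. Over all genes, 739 of 16691 (4.43%) passed. The effect on Dhrs3 was -0.79 at 24 h (edgeR adjusted p = 0.0011) and its difference from 3 h did not pass (0.27, adjusted p = 0.4). Rarb had -0.25 at 24 h (edgeR adjusted p = 0.352), with a difference between times that did not pass either (adjusted p = 0.164). Cyp26a1 had -2.40 at 24 h (edgeR adjusted p = 0.0015), and its difference from 3 h was -1.21 (adjusted p = 0.179). Cyp26b1 had -0.51 at 24 h (edgeR adjusted p = 0.141), with a difference of -0.14 (adjusted p = 0.743). Aldh1a2 rose at 24 h by 0.98 (edgeR adjusted p = 0.0011), and its effect differed from that at 3 h (1.01, adjusted p = 0.00049). Cyp26c1, a low gene of the Cyp26 family, was the one below 0 (-3.19, edgeR adjusted p = 0.0463), at 0 to 0.127 CPM with 10 µM and 0.255 to 1.10 CPM in controls at 24 h. It was not among the genes tested in the 24 h comparison alone. Cyp1b1 turned round, with 34.1, 45.6, 84.4 and 58.4 CPM with 10 µM and 27.5, 38.1, 43.6 and 29.9 CPM in controls at 24 h. Those groups overlapped, the log2 fold change was 0.63 (edgeR adjusted p = 0.0082), and the difference between the times was 2.03 (adjusted p = 1.65e-05).

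**Figure D5:**
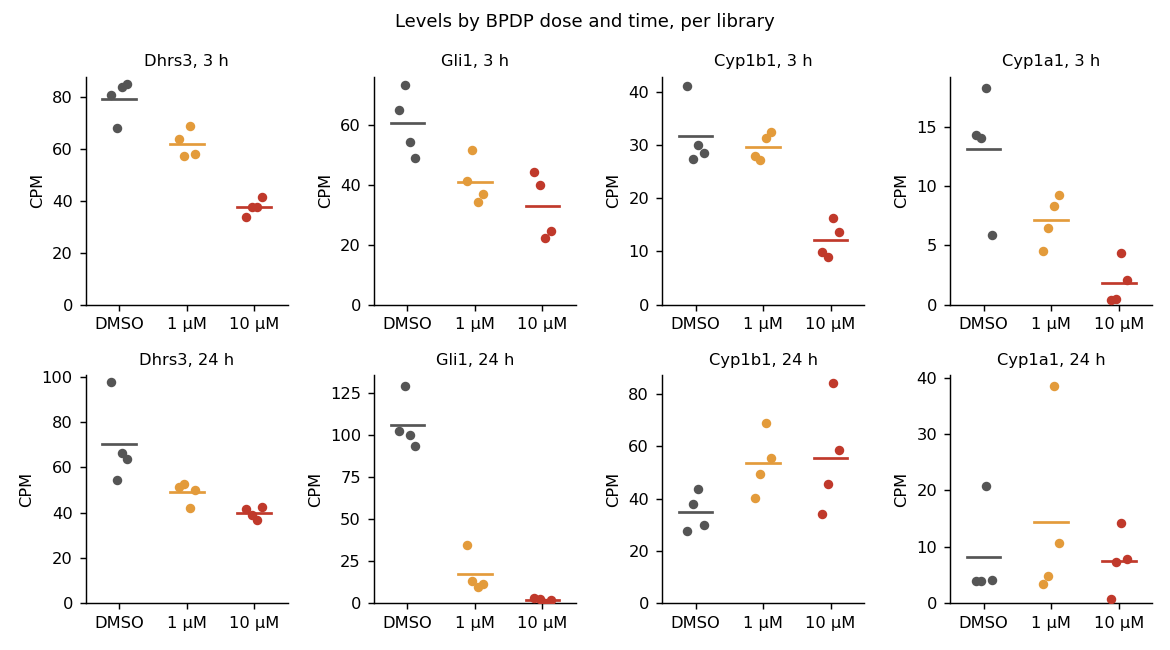
CPM (y axis, from 0) of Dhrs3, Gli1, Cyp1b1 and Cyp1a1 in each library by BPDP dose (x axis, DMSO control, 1 µM and 10 µM), at 3 h in the upper row and 24 h in the lower row. Points are libraries and bars are means (n = 4). At 3 h the 10 µM libraries of Dhrs3 and Cyp1b1 lie under all others. Those of Cyp1a1 do so narrowly, at up to 4.32 CPM against 4.56 CPM in the lowest 1 µM library. At 24 h the 10 µM libraries of Gli1 lie at 0.127 to 2.78 CPM.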

How the data were processed

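Poly-A RNA of 24 libraries was sequenced, 4 for each of 6 groups, and the 8 libraries with 10 µM BPDP or solvent at 3 h are compared here. Per the submitters' processing notes, mm10 was the build, and DESeq2 (given as version 2), HTSeq 0.6.1, STAR 2.5 and CASAVA 1.8 were used. The authors deposited raw read counts per gene in 5 pairwise tables, with no normalization, and gene lengths in bases. The authors' deposited log2 fold changes and p-value columns were not used, nor were FPKM values and group means (50 columns over the 5 tables). Where 1 library stood in more than 1 table, 0 of 375696 values differed, which gave 1 matrix of 25844 genes. Within groups, all pairs of libraries differed beyond sampling noise (chi-square divided by its degrees of freedom at least 4.85).

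Counts were tested with edgeR 4.0.16 in R 4.3.3 (quasi-likelihood, robust, TMM scaling, filterByExpr with minimum count 10 and minimum total 15, Benjamini-Hochberg adjustment over all tested genes, threshold 0.05). The replicate number from the labels was a block. Residuals of libraries with the same number correlated at 0.106 to 0.279, over the bound of 0.1 in all 4 pairs, though 2 of 4 treated libraries correlated best with their own number, so a pairing by number and a split between replicates 1 and 2 and replicates 3 and 4 are not separated. CPM was computed with TMM factors over all 24 libraries. Length and GC trends were fitted per library by loess (span 0.3) and removed as offsets (99.5% of tested genes had a GC value, from GENCODE vM21). Doses and times were compared by contrasts in 1 fit of all 24 libraries. DESeq2 1.42.0, other scalings, filters and left-out replicates were alternatives.

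The members and lists were chosen with earlier results of these data known. A pair of genes is not reported here and was left out of the lists, though not out of the fits or the counts over all genes. Named genes were a selection from the 12 that rose and the 12 that fell most among called genes with a mean of at least 50 counts and groups that do not overlap, the hedgehog genes, 4 or fewer called members from any other list (2 where none was called), and Gli1, Ptch1, Hhip, Ihh, Sox9, Col2a1 and Runx2. Stra6, Aldh1a2, Cyp1a1, Ahrr, Tiparp, Ahr, Ier2, Arid5b, Hic1, Alg10b, Tbx5, Tbx4, Rara, Rarg, Cyp26c1, Xist, Ddx3y, Angptl4 and Mbnl3 were named outside this rule, after their values were seen. Whether the library kit marks strand is not given in the sources used here, so overlapping antisense genes cannot be told apart, and ribosomal protein, histone and keratin genes may share reads with close copies. Coordinates of genes are those of the authors' tables and those of promoters are from RefSeq.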

Additional observations from a re-analysis of the deposited data

Results flagged for a closer look

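In some genes 1 library stood apart from the other 3 of its group by more than Dixon's 95% critical value for 4 samples. This was tested in 128 groups and met in 9, and chance alone gives about 1 in 20. In the 10 µM group the library was replicate 1 each time: Ptar1 at 7.07 CPM, Cep85l at 10.7 CPM, Kmt2c at 113 CPM and Herc1 at 102 CPM, each the highest of the group. In controls replicate 1 was the highest for Runx3 at 38.9 CPM, Cep85l at 6.03 CPM and Arsi at 41.4 CPM. Control replicate 3 was the highest for Cenpe at 72.8 CPM, and control replicate 4 the lowest for Fosb at 10.4 CPM.

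The effect of 10 µM BPDP differed between 24 h and 3 h for 23 of the named genes, by a test of the difference in edgeR. Each value is the log2 effect at 24 h minus that at 3 h. Among hedgehog genes it was -5.14 for Gli1, -1.72 for Ptch1, -1.80 for Hhip, -1.02 for Ccnd1, -1.14 for Bcl2, -0.80 for Pthlh, 0.67 for Foxf2 and 1.96 for Ihh. Among genes of cartilage and bone it was -0.99 for Runx3, -0.50 for Runx2 and 1.23 for Cytl1. Among genes of the aryl hydrocarbon receptor it was 2.03 for Cyp1b1, 2.35 for Ahrr and -0.75 for Ahr. It was 1.01 for Aldh1a2, -3.19 for Cyp26c1, 1.10 for Ctgf, -0.45 for Bmp7, -0.60 for Notch1, 0.71 for Slc7a1, -0.45 for Birc6, -1.10 for Cenpe and -0.72 for Fzd3.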

How the results depend on the processing

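The 3 h comparison called 335 genes with the replicate block and 1 without the replicate block, and the cause was not tested. With the block, RLE size factors gave 309, upper quartile scaling 250, DESeq2 499 of 10617 genes, a minimum mean of 50 counts 418, and a fit of all 24 libraries 280. No filter on low counts gave 983 of 24254 genes. Removing the length trend gave 42, and removing length and GC trends 26. Leaving out each replicate in turn gave 1 to 1331 with the block. Leaving out each library without the block gave 1 to 11. Replicates 1 and 2 alone gave 4 and replicates 3 and 4 alone gave 48. Settings chosen after seeing the data were removal of the length trend without the block, with 13, and its removal with 1 term setting replicates 1 and 2 apart from 3 and 4, with 59.

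Without the replicate block, the dose comparison gave 0 in place of 3 genes, the difference between times 432 in place of 739, 10 µM at 24 h 963 in place of 1645, and 1 µM at 3 h 0 in place of 2. Leaving out each replicate gave 1 to 2 genes between doses and 302 to 602 between times. The length slope differed by 0.0834 between the groups, and by 0.112 in genes with a mean of at least 50 counts.

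Aldh1a2 (-0.03) turned sign in 11 alternatives, none with a call. It was 0.0102 without the replicate block, 0.0254 and 0.0482 with the length trend and the length and GC trends removed, and 0.11 in replicates 3 and 4 alone. It was -0.14 to 0.0649 when leaving out each replicate with the block. Without the block it was 0.13 and 0.0768 without control replicate 3 and 4, and 0.22 and 0.0519 without 10 µM replicate 1 and 2. It was 0.0616 with the length trend removed and no block and 0.0463 with the replicate split. Ptch1 (-0.12) had 0.10 without the block and without control replicate 1, where Foxf2 (-0.21) had 0.00115. Cyp26c1 (-0.37) had 0.0553 in replicates 3 and 4 alone. Depth limits genes under about 1 CPM, such as Foxf1, where counting error is large.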
